A study of Mus musculus with 12 samples.

Results

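Layer 5 near-projecting neurons were described here from single-nucleus RNA sequencing (snRNAseq) of mouse cortex at P21, that is, at 21 days of age. Members were chosen by their own counts. A nucleus was a member if it held at least 3 unique molecular identifiers (UMIs, each standing for a captured RNA molecule) of Tshz2, at least 2 of Vwc2l and none of Gad1 or Gad2, the genes of the enzymes that make GABA. Of 78743 barcodes, 71914 were kept, after leaving out 6808 with over 12000 UMIs and 21 with over 1% mitochondrial UMIs, and 2291 of those kept were members, or 3.19%. The members were 1048 of 32897 kept nuclei in WT animals and 1243 of 39017 in MYT1L Het animals, with 113 to 323 per WT animal and 183 to 279 per Het animal.

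The 12 animals were 6 WT and 6 MYT1L Het mice, with 3 males and 3 females of each genotype. Het animals carried the S710fsX frameshift allele of Myt1l on 1 of the 2 copies of the gene in the whole body, so that neurons other than the members carried it too. All 12 animals, WT included, had received AAV9 vectors carrying the hyPB transposase and a tdTomato reporter transposon into the brain ventricles as newborn pups, and the animals came from 4 litters that were not assigned to samples in the labels. No barcode was shared between the 12 libraries, which held 23429386 to 59958572 UMIs each.

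Near-projecting neurons are a class of excitatory neurons of layer 5, and part of layer 6, whose axons stay close to the cell body. They differ in this from the extratelencephalic neurons of layer 5, which project to subcortical targets, from the corticothalamic neurons of layer 6 (L6 CT) and from the intratelencephalic (IT) neurons, which project to other cortical areas and the striatum. Tshz2 encodes a zinc finger transcription factor, Vwc2l a secreted protein with von Willebrand factor C domains, and Nxph1 a secreted ligand of neurexins. MYT1L is a zinc finger transcription factor of neurons.

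The labeled cell type was first checked against its markers. Levels are given as CPM, the counts scaled to the total of the summed UMIs of a class in an animal, with mean ± SD over 12 animals, and members were set beside 38731 other excitatory nuclei, 5959 nuclei with at least 3 UMIs each of the L6 CT genes Foxp2 and Hs3st4, and 1440 with at least 3 UMIs of Rorb and 2 of Cux2, genes of L4/5 IT neurons. Other excitatory nuclei were non-members that held no Gad1 or Gad2 UMIs and at least 3 UMIs summed over 5 excitatory markers. They could include L6 CT and L4/5 IT comparison nuclei. Because the rule used the counts of the nuclei themselves, the levels are descriptions without a test. All 7 near-projecting markers were higher in members than in other excitatory nuclei in 12 of 12 animals. Tshz2 stood at 2395 ± 173 CPM in members and 161 ± 31.0 CPM in other excitatory nuclei, and Vwc2l at 1168 ± 59.5 and 28.4 ± 5.59 CPM, as the rule required. The rule did not use the other 5 markers. Nxph1 was at 330 ± 95.2 CPM in members against 26.7 ± 5.52 CPM in other excitatory nuclei. Slc17a8, the vesicular glutamate transporter VGLUT3, was at 9.62 ± 3.77 against 0.915 ± 0.207 CPM. Trhr, the receptor of thyrotropin-releasing hormone, was at 22.2 ± 8.27 against 5.45 ± 1.74 CPM, Lypd1 at 96.0 ± 20.9 against 27.4 ± 3.54 CPM, and Sla2 at 4.03 ± 1.51 against 0.639 ± 0.253 CPM. The plot of marker levels by class of nuclei shows these together with the markers of the neighboring classes.

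**Figure D1:**
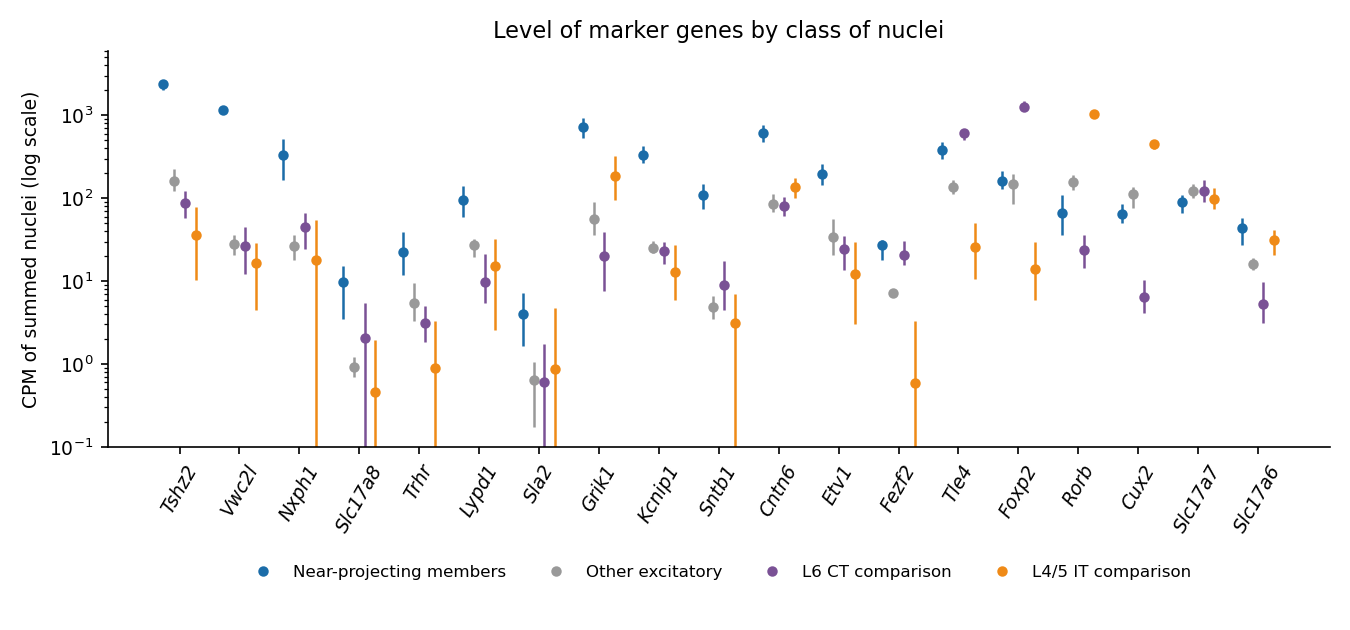
Level of marker genes, as CPM of the summed nuclei on a log scale, in the members (blue), other excitatory nuclei (gray), L6 CT comparison nuclei (purple) and L4/5 IT comparison nuclei (orange). Other excitatory nuclei could include nuclei of both comparison classes. Points are means and lines run from the lowest to the highest of 12 animals, down to the edge of the axis where the lowest is 0; members lie above the 3 other classes for Tshz2, Vwc2l, Nxph1, Grik1, Kcnip1 and Sntb1.

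Markers of other deep-layer classes were partly shared. Fezf2, a transcription factor of subcerebral projection neurons, was at 26.9 ± 4.09 CPM in members, 7.20 ± 0.525 in other excitatory nuclei and 20.9 ± 4.16 in the L6 CT nuclei. Tle4, a corepressor of layer 6 neurons, was at 376 ± 47.5 CPM in members and 615 ± 54.6 in the L6 CT nuclei. Its mean in other excitatory nuclei was 135 CPM, and members were higher in 12 of 12 animals. Hs3st4, which with Foxp2 defines the L6 CT nuclei, was at 2143 ± 255 CPM in members and 1006 ± 98.4 in other excitatory nuclei. Members were higher than other excitatory nuclei for Hs3st4 in 12 of 12 animals, and the L6 CT nuclei held it at 4851.5 ± 258 CPM. Foxp2 was at 162 ± 25.3 CPM in members, near the 147 ± 32.7 CPM of other excitatory nuclei and far under the 1255 ± 91.0 CPM of the L6 CT nuclei. Syt6, another L6 CT gene, was at 6.85 ± 4.70 CPM in members and 163 ± 36.9 in the L6 CT nuclei. Of the markers of extratelencephalic neurons, Bcl11b was at 120 ± 22.3 CPM in members and 62.1 ± 9.19 in other excitatory nuclei, and Parm1 was at 46.5 ± 14.6 CPM in members, 2.22-fold over other excitatory nuclei. Svil, on the layer 6b list, was at 66.9 ± 20.5 and 15.4 ± 3.45 CPM, and all 3 genes were higher in members in 12 of 12 animals. The other layer 6b genes above 1 CPM were Ccn2, at 3.27 ± 2.04 against 2.16 ± 0.530 CPM and higher in 8 of 12 animals, and Moxd1, 3.03-fold lower than the 4.24 ± 0.720 CPM of other excitatory nuclei and higher in 1 of 12. Chrna6, Cplx3 and Nxph4 of the same 2 lists had means under 1 CPM in all 4 classes of nuclei and do not tell them apart. Cux1, Cux2 and Rorb, genes of upper-layer and layer 4 neurons, were lower in members than in other excitatory nuclei in 12 of 12 animals. Il1rapl2, on the same L4/5 IT list, was higher in members in 10 of 12 animals, at 418 ± 120 against 325 ± 80.5 CPM, and was at 81.5 ± 44.3 CPM in the L4/5 IT nuclei, and Rspo1 was at 0.965 ± 0.695 and 0.892 ± 0.280 CPM in members and other excitatory nuclei. Slc17a7, the main vesicular glutamate transporter of cortex, was at 89.7 ± 15.9 CPM in members and 122 ± 14.4 in other excitatory nuclei, whereas its relative Slc17a6 was at 43.2 ± 9.64 and 16.1 ± 1.46 CPM.

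Markers of cells outside the excitatory lineage were low. Of the inhibitory list, Sst, Pvalb and Vip were at 0.307 ± 0.466, 0.368 ± 0.473 and 0.745 ± 1.06 CPM, and Gad1 and Gad2 were 0 by the rule. The astrocyte genes Aqp4 and Gja1 were at 0.696 ± 0.829 and 0.600 ± 1.22 CPM, and the endothelial gene Cldn5 was at 0 in every animal. Some members nevertheless met the thresholds of another class: 239 (10.4%) met those for L6 CT, 7 those for L4/5 IT and 90 held at least 3 UMIs of non-neuronal markers. No doublet caller was run, and results are also given for the 1963 members (85.7%) that met none of these 3 criteria.

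Beyond the fixed markers, the 20 genes with the highest fold of members over other excitatory nuclei, among genes at 50 CPM or more in members, were listed. After Vwc2l (40.6-fold over summed animals) came Sntb1 (22.6-fold), which encodes a syntrophin that anchors membrane proteins to dystrophin, and Lcp1 (18.6-fold), an actin-bundling protein. Grik1, the kainate receptor subunit GluK1, was at 728 ± 104 CPM in members and 56.0 ± 14.4 in other excitatory nuclei. Kcnip1, a Kv4 potassium channel interacting protein, was at 330 ± 50.7 and 25.3 ± 2.65 CPM. Alk, a receptor tyrosine kinase (8.72-fold), Cntn6, a contactin (611 ± 115 against 85.5 ± 13.7 CPM), Unc13c, a synaptic vesicle priming protein (5.54-fold), and Olfm3, an olfactomedin (5.29-fold), were also among them. Etv1 (5.56-fold) and Tox (5.46-fold) are transcription factors. The rest of the 20 were Tshz2, Nxph1, Rnf152, Coro6, Skap1 and the noncoding or unnamed transcripts Gm49906, 4930598N05Rik, Gm28905 and Rmst. The distinction from L6 CT nuclei was narrower for Rnf152 (1.38-fold) than for Grik1 (36.5-fold), while over L4/5 IT nuclei Grik1 was 3.97-fold and Rmst 3.53-fold higher. The genes furthest below other excitatory nuclei were Zfhx4 (6.30-fold lower), Bmpr1b (5.84-fold), Pld5 (5.69-fold), Enpp2 (5.63-fold) and Slc9a9 (5.00-fold). Of 3220 genes at 50 CPM or more in either class, 123 were at least 2-fold higher and 87 at least 2-fold lower in members in all 12 animals.

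The nuclei at the edge of the rule were compared once. Members held a median of 13 Tshz2 UMIs (quartiles 8 and 18, highest 59) and 5 Vwc2l UMIs (quartiles 3 and 9, highest 36), and 28 members held 3 and 2 after rounding. Another 677 nuclei fell 1 UMI short, after rounding, in 1 of the 2 genes, and they could also count among the other excitatory nuclei. In those 677, Kcnip1 was at 104 ± 38.6 CPM and Grik1 at 244 ± 97.9 CPM, under the members and above other excitatory nuclei. There, 17 of the 20 genes were higher than in other excitatory nuclei in all 12 animals. Tshz2 and Vwc2l are among the 17, and their levels follow from how the 677 nuclei were chosen. The 192 nuclei that met the Tshz2 and Vwc2l thresholds but held Gad1 or Gad2 UMIs were 7.73% of all that met them. In these, Erbb4, a receptor found in many interneurons, was at 2553 ± 1159 CPM against 110 ± 39.8 CPM in members, and Nxph1 was at 1015 ± 315 CPM. Grik1 (1155 ± 491 CPM), Kcnip1 (489 ± 178 CPM) and Alk (476 ± 186 CPM) also had higher means there than in members. Sntb1, Etv1, Cntn6, Tox and Rmst had lower means there than in members.

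Nxph1 divided the members. It was detected in 22.7% of members, against 5.24% of other excitatory nuclei, 6.21% of L6 CT and 4.72% of L4/5 IT nuclei, and median depth per animal was 4741 to 6222.5 UMIs in members and 5120 to 6682 in other excitatory nuclei. At least 1 Nxph1 UMI was held by 511 members (22.3%), with a median of 6 (quartiles 2 and 13), and 289 of the 511 (56.6%) held 5 or more. In contrast, 1770 held 0, and 10 with a fractional count were put in neither group. The median depth was 5499 UMIs per nucleus with Nxph1 and 5629 without. Members with Nxph1 ran from 13 in WT female 1 to 90 in WT male 3, and means over animals weigh each animal alike. Differences between the groups with and without Nxph1 are descriptions, because the groups were defined from the counts and the genes named were chosen after the values were seen.

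**Figure D2:**
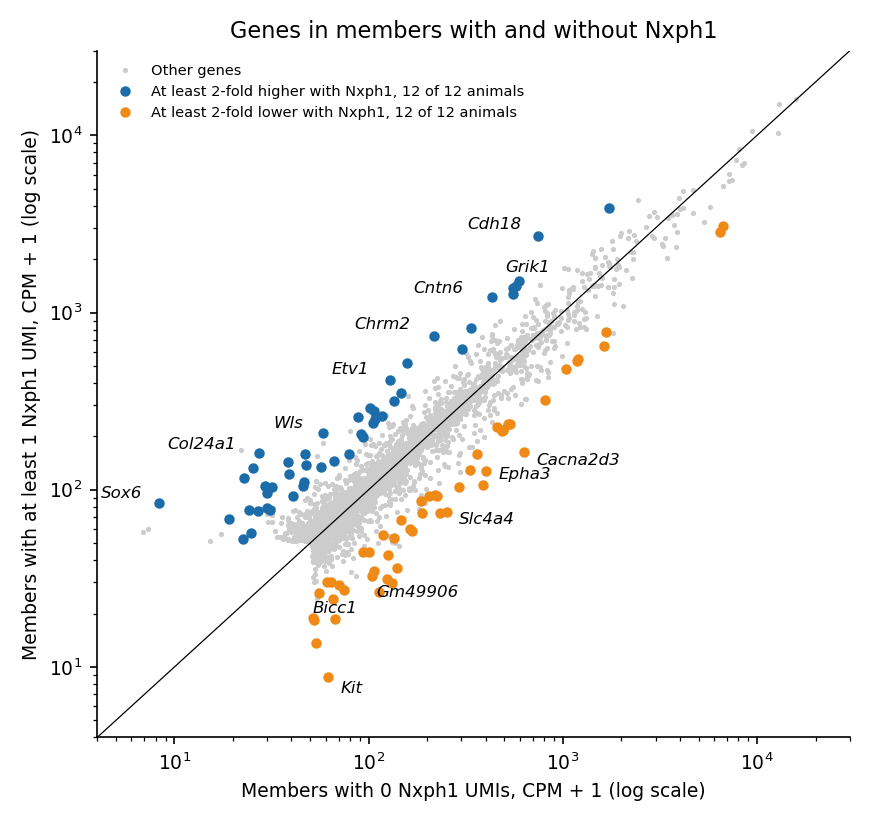
Level of each gene at 50 CPM or more in either group, as CPM + 1 of the UMIs summed over 12 animals, on log scales, in the 1770 members with 0 Nxph1 UMIs (x axis) and the 511 with at least 1 (y axis); the line marks equal levels and Nxph1 itself is not shown. Of 3231 genes at that level, colored points are the 47 at least 2-fold higher and the 52 at least 2-fold lower with Nxph1 in all 12 animals.

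Both groups held Tshz2 at similar levels, at 2512 ± 262 CPM with Nxph1 and 2361 ± 184 CPM without. Sntb1 was at 103 ± 46.3 and 112 ± 24.0 CPM, and Alk at 133 ± 40.8 and 149 ± 36.8 CPM. Other genes separated the groups. Cdh18, a classical cadherin, was at 2752 ± 551 CPM with Nxph1 and 749 ± 115 CPM without, with no overlap between the lowest and highest animals of the groups (1806 and 926 CPM). Chrm2, the M2 muscarinic acetylcholine receptor, was at 746 ± 281 against 213 ± 53.6 CPM, and Etv1 at 429 ± 104 against 131 ± 21.3 CPM. Also higher were the kainate receptor auxiliary subunit Neto2 (3.31-fold), the NMDA receptor subunit Grin3a (3.34-fold), the glycine receptor subunit Glra2 (3.28-fold) and Grik1 (2.46-fold). The fibrillar and associated collagens Col24a1 (6.07-fold) and Col12a1 (5.40-fold), the Wnt secretion protein Wls (3.64-fold) and Cntn6 (2.84-fold) lay on the same side. Sox6, a transcription factor, was 11.3-fold higher, but ran from 9.49 to 245 CPM between animals in the members with Nxph1 (83.2 ± 81.2 CPM, against 7.43 ± 4.73 CPM without). Slc17a8 was at 29.4 ± 13.7 CPM with Nxph1 and 4.34 ± 3.12 without. Tle4 (2.08-fold), Lypd1 (2.03-fold) and Rorb (2.92-fold) were higher with Nxph1 as well.

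Other genes were higher in the members without Nxph1. Kit, a receptor tyrosine kinase, was at 60.8 ± 13.6 CPM without Nxph1, 7.51 ± 6.09 CPM with it and 13.5 ± 1.88 CPM in other excitatory nuclei. Cacna2d3, an auxiliary subunit of voltage-gated calcium channels, was at 601 ± 171 against 153 ± 66.1 CPM, and Epha3, an ephrin receptor, at 407 ± 55.8 against 124 ± 50.9 CPM. Other excitatory nuclei held Epha3 at 169 ± 17.4 CPM but Cacna2d3 at 823 ± 104 CPM, above both groups. The netrin-G family member Ntng2 (4.19-fold), the integrin Itga8 (4.08-fold), the postsynaptic scaffold Homer2 (3.74-fold), the bicarbonate transporter Slc4a4 (3.39-fold) and Cux2 (2.82-fold) were higher without Nxph1. Of these 5, Ntng2 and Cux2 had a higher mean still in other excitatory nuclei (72.5 and 112 CPM, against 52.8 and 74.6 CPM in members without Nxph1), Itga8 and Homer2 had similar means there (106 and 58.3 CPM, against 124 and 65.5 CPM), and Slc4a4 was at 115 against 253 CPM. Gm49906 was the only gene of the 20 listed above that was higher without Nxph1 in all 12 animals (3.92-fold), whereas 8 of the other 18, leaving out Nxph1 itself, were higher with it. Pde1a was at 440 ± 104 CPM without Nxph1 and 261 ± 136 CPM with it. Erbb4 was at 231 ± 149 CPM with Nxph1 and 76.3 ± 43.4 CPM without, and Adarb2, another gene of many interneurons, was at 111 ± 89.5 and 53.9 ± 24.9 CPM, against 95.4 ± 18.8 CPM in other excitatory nuclei. Slc32a1, the vesicular GABA transporter, was near 0 in both groups, with UMIs in 2 of the 511 members and in 9 of the 1770. Whether inhibitory RNA had a part in the split was not tested.

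The share of nuclei that were members did not separate the genotypes. Among kept nuclei it had a lowest, median and highest value of 2.67%, 2.98% and 4.08% in WT animals and 2.61%, 3.28% and 3.64% in Het animals. The ranges overlapped, and WT male 3 stood apart at 4.08%. The means were 3.12% ± 0.497 (SD, n = 6) and 3.20% ± 0.410 (SD, n = 6), a difference of 0.0794 percentage points (two-sided exact permutation test over animals, p = 0.777). Without WT male 3 the difference was 0.271 points (exact p = 0.199). Among males the difference was -0.243 points (exact permutation p = 0.8), and among females it was 0.402 points (exact permutation p = 0.3), where 3 against 3 animals cannot give a p under 0.1. A share of nuclei does not tell fewer neurons from nuclei that hold less Tshz2 or Vwc2l RNA.

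**Figure D3:**
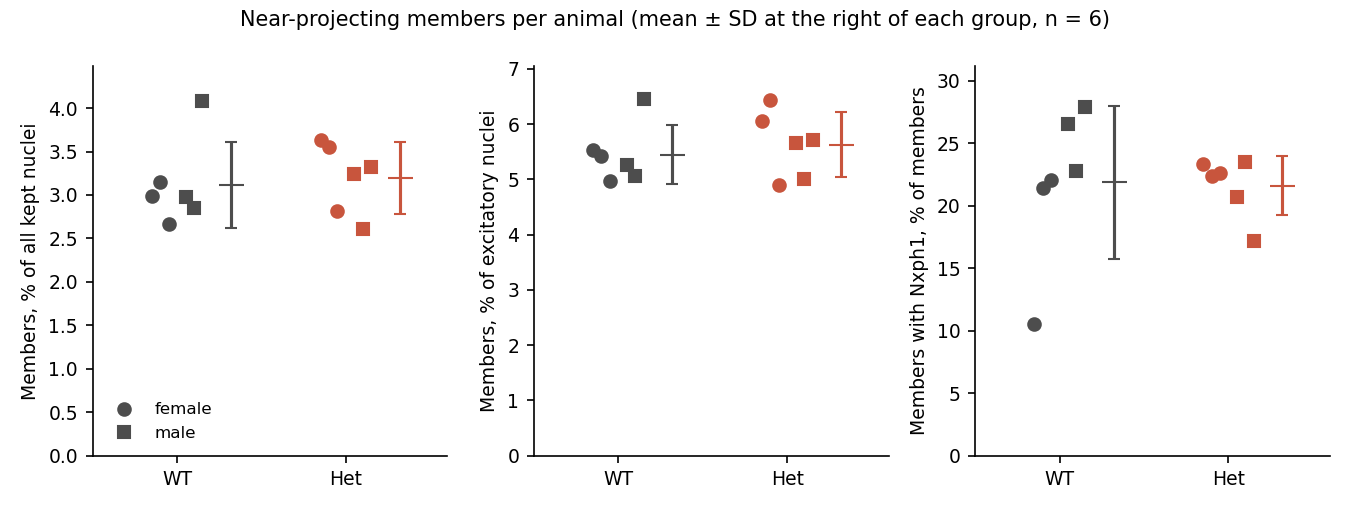
Members per animal as a percent of all kept nuclei (left) and of excitatory nuclei (middle), and members with at least 1 Nxph1 UMI as a percent of members (right). Circles are females and squares males, with mean ± SD at the right of each group (n = 6); WT and Het animals overlap in all 3 panels, WT male 3 is highest in the first 2 and WT female 1 is lowest in the third panel at 10.6%.

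The share of members with an Nxph1 UMI was 10.6%, 22.4% and 27.9% in WT animals (lowest, median, highest) and 17.2%, 22.5% and 23.5% in Het animals, and these ranges overlapped too (exact permutation p = 0.955, adjusted p = 0.955 over 26 quantities). WT female 1, with the lowest value, also had the highest share of members that met the L6 CT thresholds, at 16.3%. Median UMIs per member were 4741, 5830.5 and 6083 in WT animals and 4967, 5619 and 6222.5 in Het animals. Over the 26 quantities tested by exact permutation, which took in depth, genes detected, mitochondrial UMIs, TDTOMATO and the summed level of 16 marker lists, the lowest adjusted p was 0.760. The lowest raw value, 0.102, was for members with at least 3 non-neuronal UMIs (5.07% in WT and 2.98% in Het animals). The summed inhibitory markers ran from 113 to 278 CPM in WT and from 157 to 289 CPM in Het animals, and the summed astrocyte markers from 7.67 to 17.3 and from 6.03 to 16.8 CPM.

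For the comparison of Het with WT, UMIs were summed over the members of each animal, so that animals and not nuclei were the replicates. Myt1l itself was at 989, 1148 and 1343 CPM in WT animals (lowest, median, highest) and at 1210, 1263 and 1361 CPM in Het animals. The ranges overlapped, all 6 Het animals lay above the WT median, and the log2 fold change was 0.09 (SE 0.07, edgeR adjusted p = 0.872). Counts per gene do not separate the frameshift allele from the other, so this level does not check the labels.

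Of 8112 genes tested with edgeR, 1 was called, or 0.0123% of those tested; a call needed a Benjamini-Hochberg adjusted p under 0.05 and a log2 fold change above 0.2 in size. It was Pde1a, a calcium- and calmodulin-dependent phosphodiesterase that degrades cyclic nucleotides (chr2:79834453-80129458, minus strand, GRCm38). Pde1a was at 399, 428 and 645 CPM in WT animals (lowest, median, highest) and 303, 338 and 363 CPM in Het animals. All 6 Het animals lay below all 6 WT animals, and WT male 1 stood apart at 645 CPM from the other WT animals, the next being at 441 CPM. The group means were 459 ± 92.2 and 336 ± 20.2 CPM (SD, n = 6 each), and Pde1a fell by 0.48 on the log2 scale (SE 0.09, edgeR adjusted p = 0.0384). Without WT male 1 the log2 fold change was -0.38 and the adjusted p from edgeR 0.0657, and the gene was called in 4 of 12 fits that left out an animal, namely those without WT male 2, WT female 1, WT female 2 or Het male 1. It was not called among the 1963 members that met no other threshold either (-0.35, edgeR adjusted p = 0.0693), nor under the limits the study set on barcodes, among them 800 to 6000 UMIs (-0.32, edgeR adjusted p = 0.746). With library totals in place of TMM factors the call on Pde1a was lost as well (-0.44, edgeR adjusted p = 0.0558), and 3 genes not called with TMM factors, Ntrk2, Sulf2 and Sparcl1, were called as higher in Het. Pde1a was at 398 ± 90.4 CPM in the members of all 12 animals, 829 ± 64.6 CPM in other excitatory nuclei and 1488 ± 163 CPM in L6 CT nuclei, and WT male 1 had the lowest share of members that met the L6 CT thresholds, at 7.08%. Whether RNA of those nuclei had a part in the Pde1a difference was not tested.

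**Figure D4:**
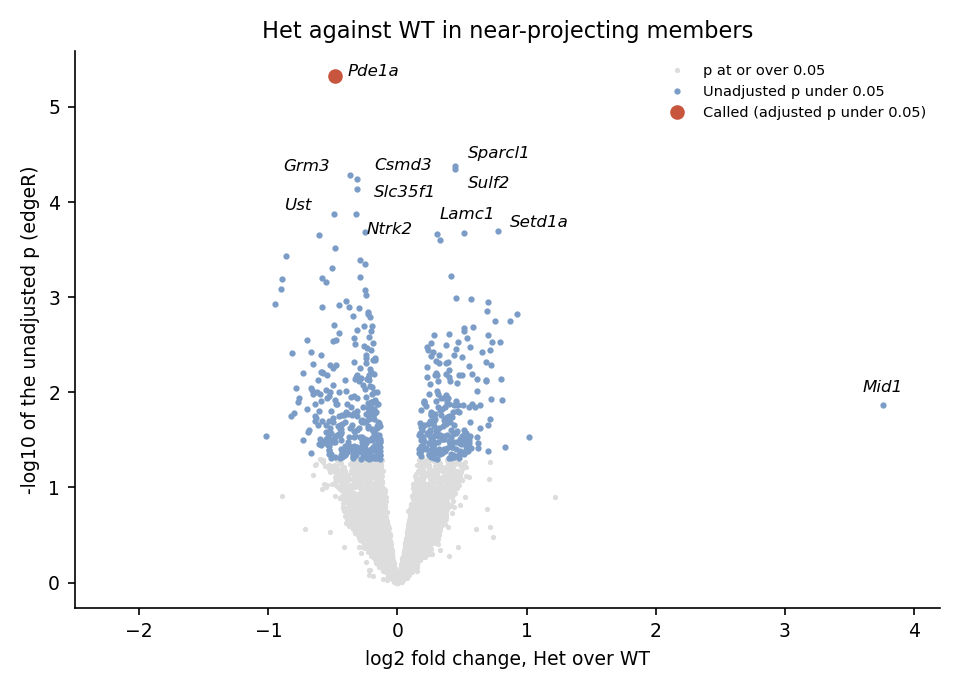
Each of 8112 genes in the summed members, by log2 fold change of Het over WT (x axis) and -log10 of the unadjusted p from edgeR (y axis). Pde1a (red) is the gene called; 575 genes (blue) had an unadjusted p under 0.05, and Mid1, at the far right, rests on 2 Het females.

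At an unadjusted p under 0.05 there were 575 genes (7.09%), 253 higher and 322 lower in Het, and 34 genes (0.419%) had no overlap between the 6 WT and 6 Het animals. This split depended on the scaling: with library totals in place of TMM factors, the median log2 fold change of all genes moved from -0.0033 to 0.04, and the higher genes went from 44.0% to 71.3% of those at an unadjusted p under 0.05. The genes next to Pde1a did not pass. Among those higher in Het, Sparcl1, a secreted glycoprotein of synapses and matrix, was at 65.4, 82.6 and 91.0 CPM in WT animals and 102, 113 and 125 CPM in Het animals. Sulf2, an extracellular sulfatase that trims heparan sulfate, was at 70.4, 78.8 and 88.6 CPM in WT animals and 102, 108 and 126 CPM in Het animals. The genotypes did not overlap for either gene, and both had a log2 fold change of 0.45 (SE 0.10, edgeR adjusted p = 0.0918). Setd1a, a histone H3 lysine methyltransferase, was at 9.73, 14.4 and 16.9 CPM in WT animals and 20.5, 23.7 and 28.6 CPM in Het animals, again without overlap (0.78, SE 0.19, edgeR adjusted p = 0.138). Lamc1, a laminin subunit (0.52), and Ntrk2, the BDNF receptor TrkB (0.31), had the same adjusted p, and their ranges overlapped.

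On the lower side, Grm3, a metabotropic glutamate receptor, was at 414, 474 and 595 CPM in WT animals and 348, 390 and 437 CPM in Het animals, with some overlap (-0.37, SE 0.08, edgeR adjusted p = 0.0918). Csmd3, a large transmembrane protein with CUB and Sushi domains, was at 1598, 1773 and 1908 CPM in WT animals and 1335, 1440 and 1665 CPM in Het animals (-0.31, SE 0.07, edgeR adjusted p = 0.0918). Slc35f1, a solute carrier family member, and Ust, a uronyl sulfotransferase acting on dermatan and chondroitin sulfate, showed no overlap. Slc35f1 was at 799, 831 and 924 CPM in WT animals and 609, 718 and 785 CPM in Het animals (edgeR adjusted p = 0.0987). Ust was at 67.3, 81.2 and 104 CPM in WT animals and 46.2, 61.8 and 64.3 CPM in Het animals (edgeR adjusted p = 0.136).

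**Figure D5:**
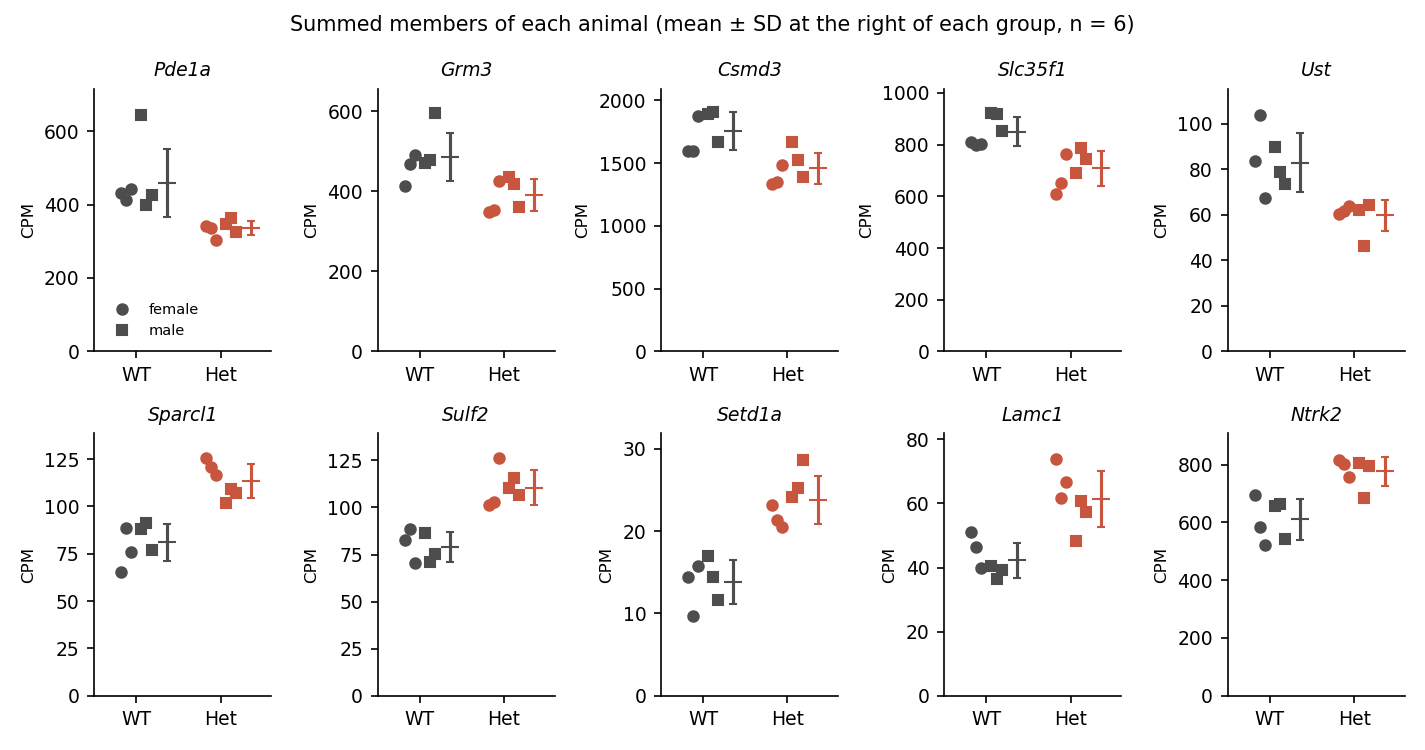
CPM in the summed members of each animal for the 5 genes with the smallest p lower in Het (top row) and higher in Het (bottom row), with y axes from 0. Circles are females, squares males, and bars mean ± SD (n = 6); Pde1a, Slc35f1, Ust, Sparcl1, Sulf2 and Setd1a show no overlap of WT and Het animals.

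DESeq2, run as an alternative, called 17 of the 1531 genes it gave an adjusted p (1.11%), 3 higher (0.196%) and 14 lower (0.914%). Besides Pde1a, Slc35f1, Csmd3 and Grm3, the lower genes included the adhesion genes Lingo2, Cntn5 and Alcam, the receptor and auxiliary subunits Grik2, Gabrb2 and Neto1, the channel Kcnt2, the kinase Pak7 and A830018L16Rik. Higher were Srrm4, a splicing factor of neurons (0.34, DESeq2 adjusted p = 0.0203), Ntrk2 (0.32) and Mid1 (3.76). Mid1, a ubiquitin ligase of the X chromosome, was at 2105 CPM in Het female 1 and 752 CPM in Het female 3 and at 23.6 to 75.6 CPM in the other 10 animals, so its fold change rests on 2 animals.

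None of the near-projecting genes or of the 20 genes that marked the members was called between WT and Het animals by edgeR or DESeq2. The 6 near-projecting genes tested took in Tshz2 and Vwc2l, the genes of the rule. Of these 6, 2 were higher and 4 lower in Het, and the median log2 fold change was -0.14. Leaving out 1 animal gave medians of -0.21 to -0.0336, the latter without WT male 3. Of the 6, 2, Lypd1 and Slc17a8, had an unadjusted p under 0.05 (33.3%, against 7.09% of all genes). Nxph1 was at 165, 325 and 515 CPM in WT animals and 216, 317 and 413 CPM in Het animals, with full overlap (-0.17, SE 0.25, edgeR adjusted p = 0.963). Lypd1 had a log2 fold change of 0.27 (edgeR adjusted p = 0.648), Slc17a8, at 11.5 CPM in WT and 7.74 CPM in Het animals, of -0.61 (edgeR adjusted p = 0.656) and Trhr of -0.37 (edgeR adjusted p = 0.8, and -0.0732 without WT male 3). Sla2, with 54 UMIs in all, was too low to test. Tshz2 (0.08) and Vwc2l (-0.10), which are counted in these 6 and in the 20 genes, are held above a minimum by the rule in every member. For the 20 genes, log2 fold changes ran from -0.24 (Olfm3) to 0.26 (Kcnip1) with a median of -0.01, 9 were higher and 11 lower, and the lowest adjusted p from edgeR was 0.368.

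Gene lists of neuronal function were then counted against all genes tested, of which 50.9% were lower in Het, 7.09% had an unadjusted p under 0.05 and the median log2 fold change was -0.0033. Pde1a is in none of them and edgeR called no gene in any, so each list is given by its counts. Of 11 GABA-A receptor subunits, 9 were lower in Het, 5 of them at an unadjusted p under 0.05, and the median was -0.17. Gabrb2 was at 513, 544 and 635 CPM in WT animals and 450, 481 and 506 CPM in Het animals without overlap (-0.25, edgeR adjusted p = 0.262). Gabra5, a subunit of extrasynaptic receptors, was at 67.2 CPM in WT and 47.2 CPM in Het animals (-0.55, edgeR adjusted p = 0.234), and Gabrb1 had a log2 fold change of -0.22. Of 20 cadherins and protocadherins, 16 were lower, 7 at an unadjusted p under 0.05, with a median of -0.17. Cdh8 was at 636 CPM in WT and 537 CPM in Het animals (-0.29, edgeR adjusted p = 0.225), Cdh20 at 140 and 103 CPM (-0.50) and Pcdh9 at 7947 and 7338 CPM (-0.16). Of 7 metabotropic glutamate receptors, 4 were lower, and Grm3, Grm8 (-0.18) and Grm5 (-0.15) had an unadjusted p under 0.05. In L6 CT and L4/5 IT nuclei the list medians were -0.13 and -0.14 for GABA-A receptor subunits, -0.14 and -0.13 for cadherins, and -0.09 and -0.15 for metabotropic receptors. The 3 lists had median levels in members of 182, 145 and 438 CPM in that order, against 33.1 CPM for all genes tested. The part of level in their shares was not tested.

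The other lists were counted in the same way. Their median levels in members ran from 18.7 CPM (immediate early genes) to 720 CPM (ionotropic glutamate receptor subunits), and the part of level was not tested. Of 15 ionotropic glutamate receptor subunits, 9 were lower and 1, Grik2 (-0.25), had an unadjusted p under 0.05. Potassium channels (39 genes) had 17 lower and 7 at an unadjusted p under 0.05, 3 of them higher, with a median of 0.05. HCN, sodium and calcium channels (29 genes) had 21 lower and 6 at that p, among them Cacna2d1 (-0.21) and Cacna1b (-0.22). Of 44 axon guidance genes 26 were lower and 7 were at that p, and Slit1, a secreted guidance cue, was at 193, 207 and 225 CPM in WT animals and 236, 251 and 270 CPM in Het animals without overlap (0.23, edgeR adjusted p = 0.380). Synaptic adhesion genes (55) had 33 lower and 10 at that p, of which 9 were lower, and active zone and vesicle genes (40) had 22 lower and 6 at that p. Of 18 modulatory receptors, 12 were lower and 3 were at that p, 2 of them lower and 1, Chrm2 (0.45), higher. Immediate early genes (8) had 5 lower and 2 at that p, immature neuron genes (12) had 7 and 3, cortical layer transcription factors (24) had 14 and 2, and 13 genes of the Myt1 family and its corepressors had 5 and 0.

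The last lists came from the study. Of 24 genes that it names at P21, which were chosen on these same samples and are not independent evidence of direction, 16 were lower and 8 had an unadjusted p under 0.05. Of 475 genes higher in MYT1L knockout forebrain at E14, 252 were lower in Het members and 51 (10.7%) had an unadjusted p under 0.05. Of 260 genes lower in that knockout, 164 (63.1%) were lower in Het members, and 62 (23.8%) had an unadjusted p under 0.05, 56 of them lower, with a median log2 fold change of -0.06 that was -0.0149 with library totals in place of TMM factors. Those 260 genes had a median level of 148 CPM in members against 33.1 CPM for all genes tested, and the part of level in that share was not tested.

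The Het effect was next set beside that in the 2 comparison classes of the same 12 animals. In L6 CT nuclei 125 of 11118 genes were called (1.12%), 94 higher (0.845%) and 31 lower (0.279%), and in L4/5 IT nuclei 13 of 7228 (0.18%), but these classes have other numbers of nuclei and UMIs than the members. Of the genes called in L6 CT nuclei, 112 were tested in members, where edgeR called 0 and DESeq2 called 4 (Grm3, Kcnt2, Gabrb2 and Ntrk2), and 29 (25.9%) had an unadjusted p under 0.05 from edgeR, against 7.09% of all genes tested. Both classes came from the same 12 animals, so this count is a description and not separate evidence, and the 112 genes had a median level of 86.9 CPM in members against 33.1 CPM for all genes tested, and the part of level in that share was not tested. The 85 higher in L6 CT had a median log2 fold change of 0.40 there and 0.19 in members, and the 27 lower had -0.35 there and -0.18 in members. These genes were chosen by their call in L6 CT nuclei, which favors larger values there. Their medians therefore do not compare the size of the Het effect between the classes. The difference of the Het effect between members and L6 CT nuclei was tested with the animal as a block, and edgeR called 0 of 10590 genes (0%), with 681 at an unadjusted p under 0.05 and 0 called by DESeq2. Against L4/5 IT nuclei edgeR called 0 of 8561 (0%), with 465 at an unadjusted p under 0.05 and 0 called by DESeq2. The smallest p was for Ust, with a log2 fold change of -0.49 in members and 0.18 in L6 CT nuclei (difference -0.70, SE 0.13, edgeR adjusted p = 0.0590). Scn1a, a voltage-gated sodium channel subunit, was at 0.01 and -0.29 (difference 0.31), Igsf11 at -0.40 and 0.48 (difference -0.87) and Igsf21 at -0.07 and 0.39 (difference -0.47), each with an edgeR adjusted p of 0.158. For Pde1a the log2 fold change was -0.21 in L6 CT and -0.42 in L4/5 IT nuclei, and neither difference from members was called. For Ust it was -1.05 in L4/5 IT nuclei (edgeR adjusted p = 0.0724), and that difference from members was not called either.

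Sex was examined as the other label of the animals. Between males and females 8 genes of 8112 were called in members (0.0986%), 3 lower in males (0.037%) and 5 higher (0.0616%), Xist, Kdm6a and Iqschfp being lower and the Y-linked Uty, Eif2s3y, Kdm5d and Ddx3y and the autosomal Sdk1 higher. Sdk1, a synaptic adhesion protein of the immunoglobulin family, had a log2 fold change of 0.48 (SE 0.10, edgeR adjusted p = 0.0380). The interaction of sex and genotype was called by edgeR for 0 genes of 8112, with 326 at an unadjusted p under 0.05, and DESeq2 was not run for it.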

How the data were processed

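The deposited matrices hold estimated counts of UMIs per gene and nucleus, made by the authors with the Scale Biosciences pipeline on mm10, and 92.6% of entries were whole (exact equality). The submitters' processing notes name Seurat 4.3.0 and DESeq2 1.38.3. Here, barcodes were kept and members chosen by the thresholds given above, summed per animal, rounded to whole numbers and tested with edgeR 4.0.16 in R 4.3.3 (TMM, filterByExpr, robust quasi-likelihood, genotype as the term), with Benjamini-Hochberg adjustment; DESeq2 1.42.0 was the alternative. Single values per animal were tested by exact permutation, for which the smallest p over 12 animals is 0.00216. The members and gene lists were chosen with earlier results of these data known. Named genes were the markers, Myt1l, the 5 smallest p in each direction, the 3 smallest of each list, the 20 highest and 5 lowest folds over other excitatory nuclei, and the 5 smallest p for a difference from L6 CT; the genes of the Nxph1 groups, and those named from DESeq2, were chosen after their values were seen. Coordinates are from GENCODE vM21 (GRCm38), which held 54587 of 55336 gene IDs. Values of 2 genes that these rules name are not reported here. Ambient RNA was not subtracted and no doublet caller was run; the study removed multiplets in its own analysis, and whether the deposited matrices precede that step is not given in the sources used here. Scripts were tested on simulated data.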

Additional observations from a re-analysis of the deposited data

Results flagged for a closer look

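Within a genotype of 6 animals, an animal was taken to stand apart where its gap to the nearest other, divided by the range, exceeded the 95% critical value of Dixon's test. Of 42 groups examined, 4 met this, where chance gives about 1 in 20. The share of kept nuclei that were members was 4.08% in WT male 3, and the next WT animal was at 3.15%. The share of members with an Nxph1 UMI was 10.6% in WT female 1, and the next was at 21.4%. Pde1a was at 645 CPM in WT male 1, and the next was at 441 CPM. Ust was at 46.2 CPM in Het male 2, and the next was at 60.2 CPM.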

How the results depend on the processing

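The number of genes called between Het and WT was 1, and it was 17 with DESeq2, 3 without TMM factors (Ntrk2, Sulf2 and Sparcl1, all higher, and not Pde1a), 21 without the filter on low counts, 4 among members that met no other threshold (an alternative chosen after seeing the data), and 0 under the looser rule for members, among members with Nxph1 and under the barcode limits of the study. The stricter rule called 1 gene, Cdh9, in place of Pde1a. Leaving out each animal gave 0 to 8 genes, with 8 without WT female 1 and 3 without Het male 1. For the difference from L6 CT nuclei the leave-one-out range was 0 to 3 genes (3 without WT male 2) and for that from L4/5 IT nuclei 0 to 2 (2 without WT male 3). The labels do not say what a replicate number shares. Deviations of same-numbered WT and Het animals of a sex correlated at 0.0112 to 0.121, not above 0.1 in every pair, so the numbers were not taken to pair them, although 4 of 6 WT animals correlated best with the Het animal of their own number. A fit with the replicate number as a block called 1 gene, Pde1a (edgeR adjusted p = 0.00771), gave an exact p of 0.688 for the share, and changed no other call. For Pde1a the adjusted p over all alternatives ran from 9.63e-05 to 0.979.

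The difference in the share was -0.00351 points for members with Nxph1, -0.0186 under the limits of the study and -0.0108 to 0.271 when 1 animal was left out. It was -2.60 for members per 100 nuclei that either were members or held at least 2 Slc17a7 UMIs and no Gad1 or Gad2. Directions turned for these genes: Scn1a (-0.00584 looser, -0.0531 limits of the study, -0.000802 for members that met no other threshold, -0.0147 to 0.0419 leave-one-out), Igsf21 (0.0444, 0.226 and 0.0514 under the same 3 settings), Nxph1 (-0.304 to 0.00592 leave-one-out, the latter without WT male 3), and Cntn5 (0.36) and Ptn (0.38) in members with Nxph1. The median of the immediate early genes, -0.13, turned above 0 under the looser rule and in members with Nxph1, where it was 0.20. Other list medians below 0 also turned above 0 in some settings. They reached 0.0198 for layer transcription factors, 0.0139 for ionotropic glutamate receptor subunits, 0.0106 for HCN, sodium and calcium channels and 0.0131 for immature neuron genes. The median of the Myt1 family and corepressors, 0.03, fell to -0.034 when 1 animal was left out. Other list medians moved in members with Nxph1 for layer transcription factors (-0.12), the Myt1 family (0.16), metabotropic glutamate receptors (-0.20), axon guidance (0.0643), modulatory receptors (-0.27) and genes named at P21 (-0.0261). Without TMM they moved for potassium channels (0.0933), synaptic adhesion (-0.00451), active zone (0.028) and the E14 genes higher (0.0322) and lower (-0.0149) in knockout. Active zone genes were at 0.0328 under the looser rule, E14 lower genes at -0.0356 without the filter and potassium channels at 0.0169 to 0.0813 leave-one-out. Causes were not tested, beyond the fewer members and genes that the narrower rules leave. The depth of 591490 to 1893000 UMIs summed per animal and the 113 members of the smallest library limit low genes.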
